A study of Mus musculus with 4 samples.

Results

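Loss of the transcription factor MIST1 in gastric zymogenic cells was read as 1 array of MIST1-null zymogenic cells against 1 array of wild-type zymogenic cells. Genes were taken where a probe set had exactly 1 gene symbol and the higher of both values reached the median of all such probe sets, an intensity of 43.7 or 5.45 on the log2 scale. This level was set by size alone, with no measured background behind it, and genes that met it are called detectable here. It left 11826 of 19938 genes. Both arrays came from adult C57BL/6 mice, either wild type or MIST1 knockout (Mist1-/-), with no driver of the deletion named and the mice behind each pool not listed. Zymogenic cells were cut by laser capture microdissection, which lifts chosen cells out of a frozen section under a microscope, from the stomach corpus. They were chosen as cells lying deeper in the gland than the signal of the lectin GS-II, which labels neck cell mucus, and lacking the dark outline of parietal cells. In all, 4 wild-type and 5 knockout mice gave 2 caps each, and RNA was pooled over dissections and mice to about 100 ng. Mucous neck cells of both genotypes gave the other 2 of the 4 arrays. Each group is 1 pooled array, so no difference has a replicate check, no p-value is given, and differences are sizes only. They are log2 values, MIST1-null minus wild-type, with intensities floored at 1.

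Zymogenic (chief) cells sit at the base of the gastric gland, arise from mucous neck cells and make pepsinogen and other digestive proteins. These proteins enter the endoplasmic reticulum (ER), are folded there, pass through the Golgi and wait in large apical granules until a nerve or hormone signal triggers exocytosis. MIST1, encoded by Bhlha15, is a basic helix-loop-helix factor of exocrine secretory cells that binds E-box sequences and is known for raising genes of granule traffic and for scaling up the secretory apparatus as these cells mature. Parietal cells, packed with mitochondria, secrete acid and are scattered along the same glands.

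Bhlha15 itself was checked first. It read 149.8 in wild-type and 22.0 in MIST1-null zymogenic cells, a difference of -2.77, or -1.75 with a pseudocount of 32 added to both values. Neck cells read 59.7 and 20.2, so both null arrays lie under the level and both wild-type arrays above it. The sources used here do not place its probes inside or outside the deletion. The cell type label was read against zymogenic products: Pgc (pepsinogen C), Chia1 (acidic chitinase) and Cblif (intrinsic factor) were high in both zymogenic arrays, from 4882 to 10638. Neck cells held them too, since the summed intensity of the 6 listed products was 14269.6 and 14209 in wild-type and null neck cells against 23152 and 24757 in zymogenic cells. Pga5, another pepsinogen gene, Lipf (gastric lipase) and Cym (chymosin) were under the level in both, and the gland mucin gene Muc6 was too. The 4 array medians ran from 37.9 to 40.9. With 4 arrays in all, their number sets the precision.

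Across the detectable genes, 609 (5.15%) had a value in MIST1-null zymogenic cells 2-fold or more above wild type and 619 (5.23%) one 2-fold or more below it, 1228 genes (10.4%) in all. The shares of 5.15% and 5.23% stand as the background of every list count given below. The median difference was 0.042, with quartiles at -0.36 and 0.42. Many of these genes were dim in 1 array. Of the higher genes 361, and of the lower genes 409, had their lower value under the level. Of the 8438 genes at the level in both arrays, 248 were at least 2-fold higher and 210 lower, together 5.43%. At 4-fold, 35 genes were higher and 70 lower, of which 12 and 8 had both arrays at the level. With genes split into 4 equal bins by mean level, the share past 2-fold was 16.2% in the lowest bin and 7.24% in the highest. In pooled samples such as these, fewer cells of a type and less RNA per cell cannot be told apart.

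**Figure D1:**
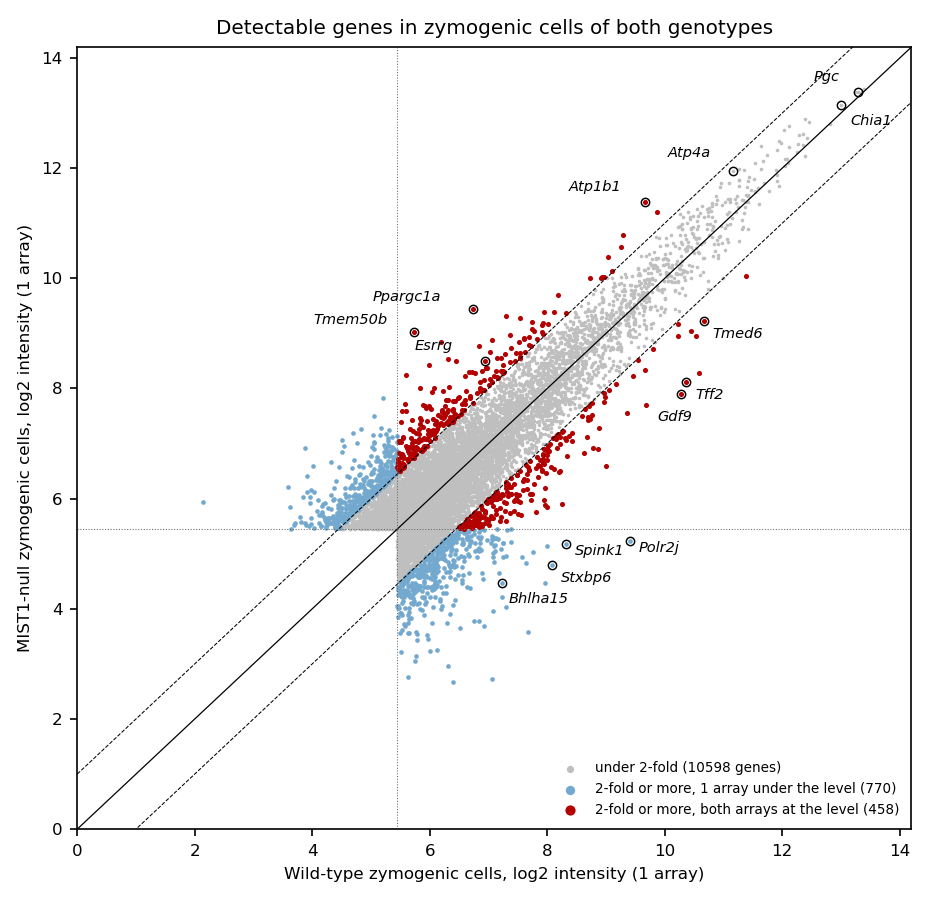
Log2 intensity of 11826 detectable genes in wild-type (horizontal axis) and MIST1-null (vertical axis) zymogenic cells, 1 array each, with equality as a solid line, 2-fold as dashed lines and the level of 5.45 as dotted lines. Red points (458 genes) differ 2-fold or more with both arrays at the level, and blue points do so with 1 array under it. Tff2 and Gdf9 lie far below the line of equality, Ppargc1a and Tmem50b far above it, and Pgc and Chia1 close to it.

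The genes with the largest differences are named in 2 groups: the 20 largest each way among genes at the level in both arrays, and then the 15 largest each way among genes bright in only 1 of them. In the first group, the genes lower in MIST1-null cells began with Blm, a DNA helicase, which read 515 in wild-type and 96.9 in MIST1-null zymogenic cells (-2.41). It was near the level in neck cells, at 54.0 and 50.4. Gdf9, an oocyte growth factor, read 1234 and 239.8 (-2.36), and 100.5 and 29.1 in wild-type and null neck cells. For both genes the wild-type zymogenic array was thus the highest of the 4. Tff2, the trefoil peptide that neck cells secrete with their mucus, read 1320.4 and 277 (-2.25). It stayed far higher in both neck arrays, at 3088 and 3827, and its neck difference was 0.31.

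Genes of vesicle traffic were also among these 20. Copz2, a subunit of the COPI coat that buds vesicles in the Golgi, went from 396 to 113 (-1.80), and Bet1, a SNARE of ER-to-Golgi vesicles, from 296 to 88.9 (-1.73). In neck cells Copz2 read 133 and 129 and Bet1 121 and 125, close to the null zymogenic values. Syne4, which links the nucleus to microtubule motors, differed by -1.77, and Tppp3, a tubulin-binding protein, went from 211 to 62.6 (-1.75). Tppp3 was under the level in both neck arrays, at 23.5 and 22.0.

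The same 20 held metabolic enzymes, though the list of aldehyde and drug enzymes as a whole had 2 of 20 detectable genes at least 2-fold higher, 1 lower and a median of 0.028. Aldh7a1, an aldehyde dehydrogenase of lysine breakdown, went from 245 to 63.1 (-1.96), and Cdo1, cysteine dioxygenase, from 656 to 187 (-1.81). Both were lower in null neck cells too, Aldh7a1 at 28.4 against 72.8 and Cdo1 at 47.0 against 120.4. Ugt2b34, a glucuronosyltransferase, differed by -1.86, and Ces1d, a carboxylesterase, by -1.66. Ctsc, a lysosomal peptidase that activates granule proteases, went from 224 to 53.9 (-2.05). Gtf2b, the general transcription factor TFIIB, differed by -2.07, Mphosph10, of ribosomal RNA processing, by -2.35, and Lcmt1, a methyltransferase acting on a protein phosphatase, by -1.62. The other members were Atxn1 (-1.98), Tex30 (-1.96), Pard3b (-1.84), Wdyhv1 (-1.78) and Aamdc (-1.72). Atxn1 and Pard3b had a dimmer probe set each that ran the other way, and averaging the probe sets brought them to -0.66 and -0.42.

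Highest in MIST1-null zymogenic cells among genes at the level in both arrays was Tmem50b, a membrane protein gene, with 52.9 in wild-type and 521 in null cells (3.30). The neck arrays read 366 and 318, so the wild-type zymogenic value stood apart. Ppargc1a, the coactivator PGC-1 alpha that drives mitochondrial gene expression, came next with 106 and 696 (2.71). It read 213 in wild-type and 355 in null neck cells, a neck difference of 0.74. Atp1b1, the beta subunit of the sodium pump, went from 810.4 to 2667 (1.72), with 1825 and 2626 in neck cells. Coq10a, which binds coenzyme Q in mitochondria, went from 63.7 to 345 (2.44) and Tmx2, a thioredoxin-related membrane protein, from 73.5 to 461 (2.65). Gstm5, a glutathione transferase, went from 79.3 to 369 (2.22).

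Other higher genes of this group encode secreted enzymes and regulators. Try10, a trypsinogen, went from 158 to 636 (2.01), and its null zymogenic value was the highest of the 4 arrays, with 118 and 144 in neck cells. Rnase1, a secreted ribonuclease, went from 74.5 to 248 (1.73), against 211 and 193 in neck cells. The transcription factor genes Runx1 and Klf7 differed by 1.93 (67.6 to 257) and 1.93 (114 to 435). Cpeb2, a regulator of messenger RNA translation, differed by 1.73 (186 to 618), and Hspa4l, a heat shock protein, by 1.82 (59.0 to 208). Lgals7, a galectin of stratified epithelia, differed by 2.65 (48.4 to 304) and went the other way in neck cells, from 122 to 4.58. Stox2 (2.17), Bcas3 (2.14), Ubxn2a (2.06), Bmt2 (2.05), Tex2 (1.89), Bex4 (1.88) and Tmem68 (1.76) complete the 20. For 17 of these 20 genes wild-type zymogenic cells gave the lowest of the 4 values, and for 18 of the 20 lower genes the highest. The choice of genes largely fixes this, since among all genes 2-fold or more higher the share lowest in wild-type zymogenic cells was 83.9%, and among all those 2-fold or more lower the share highest there was 88.7%.

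**Figure D2:**
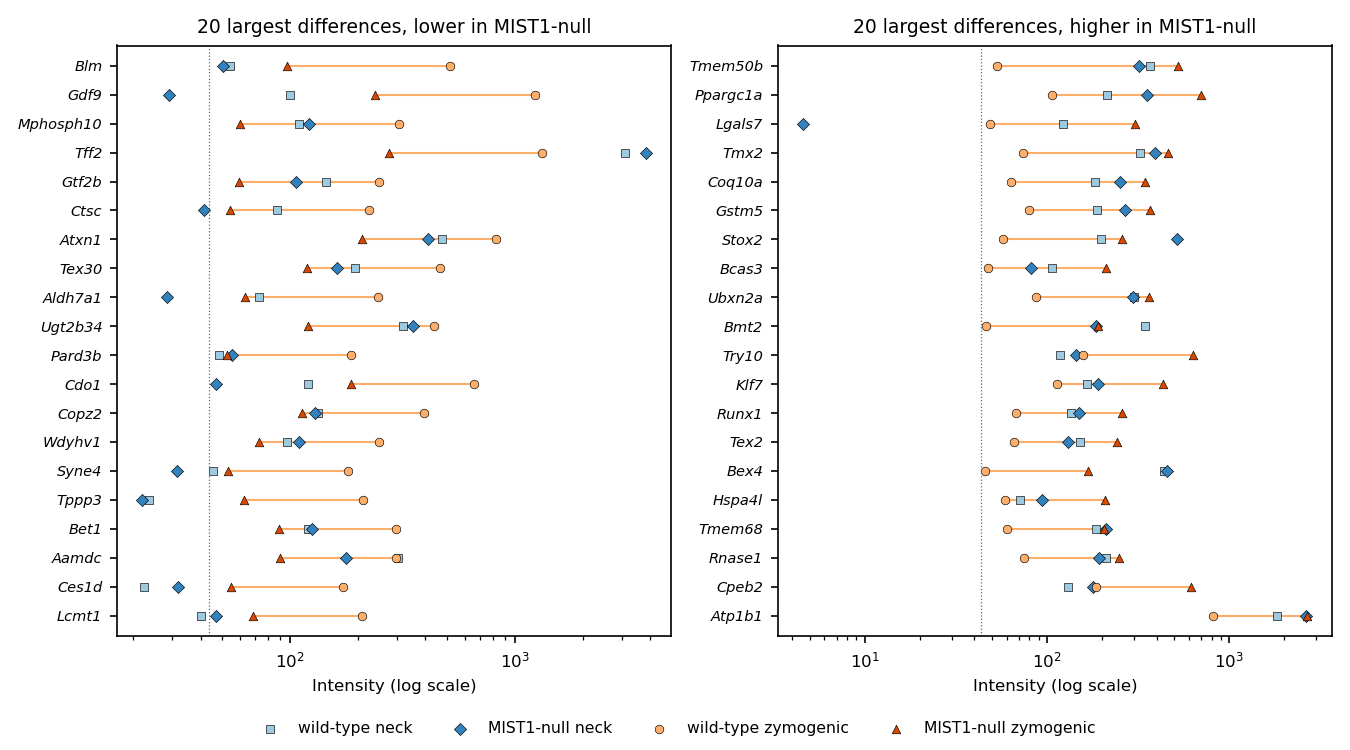
Intensity (log axis) in each of the 4 arrays for the 20 genes with the largest lower (left) and higher (right) difference in MIST1-null zymogenic cells among genes at the level in both zymogenic arrays; a line joins the zymogenic pair and the dotted line marks the level of 43.7. The wild-type zymogenic circle is the highest of the 4 points for 18 genes on the left and the lowest for 17 genes on the right. Tff2 is an exception on the left, with both neck arrays above 3000.

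Among genes bright in only 1 zymogenic array, those lower in MIST1-null cells included Spink1, a trypsin inhibitor stored with digestive enzymes, which read 319 in wild-type and 36.0 in null cells. Its difference was -3.14, or -2.37 with the pseudocount of 32. Stxbp6, which binds SNARE proteins and restrains their assembly, went from 272 to 27.6 (-3.30, or -2.35 with the pseudocount). Here both neck arrays stayed high, at 383 and 398. Aass, another enzyme of lysine breakdown, went from 157 to 16.4, and Aldoc, an aldolase of glycolysis, from 150.3 to 18.6. With the pseudocount they differed by -1.96 and -1.85.

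Polr2j, an RNA polymerase subunit gene, had the furthest value of this group, from 680.4 to 37.5 (-3.36 with the pseudocount). Null neck cells were lower as well, at 62.4 against 249. The same held for Pik3r5, which regulates a phosphoinositide kinase (-2.42, and 9.47 against 109.7 in neck cells), and Tmem19 (-1.82, and 28.1 against 177). The rest, with the pseudocount, were Nsun7 (-2.38), Tmem196 (-2.09), Dnmt3l (-1.95), a cofactor of DNA methylation, Greb1l (-1.93), Fbxo5 (-1.82), an inhibitor of the anaphase-promoting complex, Gtf2ird1 (-1.77), Bhlha15 and Slc10a5 (-1.68).

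Bright only in the null zymogenic array were Slc25a37, the mitochondrial iron carrier mitoferrin (25.8 to 146, 1.62 with the pseudocount), Sqle, squalene epoxidase of cholesterol synthesis (38.3 to 145, 1.33), and Erap1, which trims peptides for antigen display (22.8 to 133, 1.59). Anxa1, an annexin, went from 22.8 to 115 (1.43) and was under the level in both neck arrays. Taf2 and Taf1a, subunits of general transcription complexes, differed by 1.50 and 1.47, and Phka1, of phosphorylase kinase, by 1.45. Nme6 (1.92), Crlf3 (1.72), Bbof1 (1.62), Lce3a (1.42), Abhd3 (1.36), Sult1d1 (1.36), Zfp607b (1.36) and Fyb (1.31) were the others.

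Promoters were searched for the E-box CATATG, reported as a preferred MIST1 site, which reads the same on both strands, in RefSeq windows from 250 bases before to 50 after the start of transcription (GRCm38.p6). Of 619 lower genes, 478 had at least 1 window, and 11 of their 553 windows (1.99%) held it. Among higher genes it was in 19 of 614 windows (3.09%), and among all detectable genes in 234 of 11791 (1.98%). With both arrays at the level it was in 4 of 255 windows of higher genes (1.57%) and 1 of 189 of lower genes (0.529%). The other E-box CAGCTG was in 14.6% of windows of lower, 15.5% of higher and 15.7% of all detectable genes. The element TCAAGGTCA of estrogen-related receptors, searched on both strands, was in 0.181%, 0.326% and 0.263%. Of the named genes, 28 higher and 24 lower ones had a window and none of these held CATATG. Below are windows that do hold it, in capitals, for 2 lower genes of secretion, Chil5 and Rab27a, and 2 higher genes, Anxa10, an annexin of gastric epithelium, and Esrrg, each read 5′ to 3′ on the gene's strand.
Chil5, chr3:106032846-106033145, minus strand: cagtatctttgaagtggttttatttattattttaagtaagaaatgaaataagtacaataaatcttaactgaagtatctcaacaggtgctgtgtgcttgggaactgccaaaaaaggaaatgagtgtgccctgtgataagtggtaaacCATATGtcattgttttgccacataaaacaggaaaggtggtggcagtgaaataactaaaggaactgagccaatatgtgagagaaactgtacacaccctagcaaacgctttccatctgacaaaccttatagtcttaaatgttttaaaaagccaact
Rab27a, chr9:73063898-73064197, plus strand: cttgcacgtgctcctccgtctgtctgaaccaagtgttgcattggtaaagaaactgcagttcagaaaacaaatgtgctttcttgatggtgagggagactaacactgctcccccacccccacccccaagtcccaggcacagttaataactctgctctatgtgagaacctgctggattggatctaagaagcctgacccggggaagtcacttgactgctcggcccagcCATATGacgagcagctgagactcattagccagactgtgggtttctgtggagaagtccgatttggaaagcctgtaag
Anxa10, chr8:62123144-62123443, minus strand: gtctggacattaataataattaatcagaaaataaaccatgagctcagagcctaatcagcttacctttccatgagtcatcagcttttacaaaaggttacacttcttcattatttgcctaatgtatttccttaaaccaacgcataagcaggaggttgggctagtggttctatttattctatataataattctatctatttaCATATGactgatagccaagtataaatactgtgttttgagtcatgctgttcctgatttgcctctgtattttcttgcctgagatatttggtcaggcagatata
Esrrg, chr1:187997577-187997876, plus strand: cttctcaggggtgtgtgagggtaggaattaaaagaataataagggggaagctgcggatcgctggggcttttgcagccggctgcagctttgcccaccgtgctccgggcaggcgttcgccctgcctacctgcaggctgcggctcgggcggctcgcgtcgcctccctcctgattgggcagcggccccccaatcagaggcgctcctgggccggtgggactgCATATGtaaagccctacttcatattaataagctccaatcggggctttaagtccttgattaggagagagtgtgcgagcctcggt
The motif begins 104 bases before the start in Chil5, 51 in Anxa10, 26 in Rab27a, where it is in 1 of 2 listed windows, and 33 in Esrrg, where it is in 1 of 4. Chil5, a chitinase-like protein, read 219.8 in wild-type and 76.5 in null zymogenic cells (-1.52), and 21.4 and 17.4 in neck cells. Rab27a, a GTPase of secretory granules, read 69.8 and 32.9 (-1.08) in zymogenic cells. Esrrg is described with the mitochondrial genes. Anxa10 read 320.2 and 664 in zymogenic cells (1.05) and 492 and 511 in neck cells. A match is a description of letters and shows no binding.

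The digestive cargo was uneven. The main zymogenic products differed little, with Pgc at 0.092, Chia1 at 0.14 and Cblif at 0.043. Enzymes better known from the pancreas spread far more: of 13 detectable members, 2 were at least 2-fold higher and 1 lower, with a median of -0.068. Over the 6 members left by a filter at the 75th percentile the median was -0.62, and Try10 is not in this list. The lower one was Spink1 and the higher ones were Rnase1 and Prss3, a trypsinogen, which went from 21.1 to 79.9 (1.92) with the wild-type value under the level. Amy1, amylase, read 1704 in wild-type and 899 in null cells (-0.92). Pnliprp2, a lipase-related protein, read 2027 and 1027 (-0.98). Clps, the lipase cofactor colipase, was nearly level at 10705 and 11106. Trypsinogen and amylase genes have near-identical copies, so single members of these families are uncertain. Cckar, the cholecystokinin receptor through which zymogenic cells can be stimulated, read 556 and 654, and of 21 detectable genes of secretagogue receptors and calcium signalling 2 were at least 2-fold higher and none lower, with a median of 0.088. Those 2 were Cckbr (28.7 to 63.4), also counted as a parietal marker below, and Atp2a3, a calcium pump (40.0 to 81.7). Both were under the level in wild-type cells and so counted as detectable through the null array alone, which fixes their direction. Over the 16 members at the level in both arrays the median was -0.016.

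Of 6 genes reported elsewhere as activated by MIST1, 4 were detectable and none passed 2-fold. Ccpg1, an ER-phagy receptor, went from 374 to 204 (-0.88), Mib1, a ubiquitin ligase, from 158 to 104 (-0.60), Gjb1, a connexin, from 56.7 to 35.3 (-0.68) and Rab26, a granule GTPase, from 48.9 to 35.5 (-0.46). Gjb1 and Rab26 were under the level in null cells and so counted as detectable through the wild-type array alone, which fixes their direction. Wild-type zymogenic cells gave the highest of the 4 values for Ccpg1, Mib1 and Rab26, and Gjb1 read the same in wild-type neck cells (56.6). Rab3d and Atp2c2 completed the list and were under the level in both zymogenic arrays. The list was recalled from earlier work and not checked here.

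Along the secretory route, genes split within steps. At the ER membrane, where new chains are threaded in, 1 of 21 detectable genes was at least 2-fold higher and 1 lower, with a median of 0.058 against 0.042 over all detectable genes. Tram1, a chaperone of the translocating chain, read 577 and 272 (-1.09). Sec61b, a subunit of the translocon channel, read 988 and 541 (-0.87). Spcs3, of the signal peptidase, read 1712 and 988 (-0.79). Another signal peptidase subunit went the other way, Sec11a, from 185 to 374 (1.02), so the complex had no common direction.

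Of 26 ER folding genes 17 were above 0, 1 was at least 2-fold higher and none lower, and the median was 0.32, against 52.9% above 0 and a median of 0.042 over all detectable genes. All 26 were at the level in both arrays. The lectin chaperones Canx and Calr went from 1374 to 2225 (0.70) and from 614 to 971 (0.66), the chaperone Hsp90b1 from 2984 to 4345 (0.54) and Hyou1 from 204 to 329 (0.69). Txndc11 was the member past 2-fold (46.6 to 107, 1.20), and Ero1a, the oxidase that recharges disulfide isomerases, was at 0.93. Creld2 (557 to 359.6, -0.63) and P4hb, a disulfide isomerase (582 to 423, -0.46), ran lower. In neck cells, read on separate arrays, the folding median was 0.20.

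Sensors and factors of the unfolded protein response, which adjust ER capacity, had a median of 0.36 over 15 detectable members, 12 of them above 0. Not all 15 were at the level in both arrays, and over the 12 that were the median was 0.32. Atf6, a sensor released from the ER membrane, went from 70.2 to 183 (1.39). Eif2ak3, the kinase PERK, went from 98.2 to 177 (0.85), and Ern1, the sensor IRE1 alpha, from 40.6 to 70.5 (0.80), with its wild-type value under the level. Xbp1, the factor spliced by that sensor and a driver of secretory cells, went from 301 to 402 (0.42). Atf4 and Ppp1r15a, further down the PERK branch, were level at -0.036 and 0.033, and Ddit3 was at 0.57. Among ATF4-linked genes of amino acid supply, Asns, asparagine synthetase, was at 0.49 (927 to 1302) and Atf5 at 0.96, while the carrier Slc7a5 (-0.77) and the serine synthesis enzyme Phgdh (-0.93) ran lower. N-glycan transfer had 0 of 10 members past 2-fold (median 0.26) and ER-associated degradation 0 of 17 (median 0.007). Within the latter Edem3 (-0.99), Os9 (-0.85) and Derl3 (-0.84) stood low and Edem1 (0.95) and Vcp (0.84) high.

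Between ER and Golgi, 2 of 40 detectable transport genes were at least 2-fold higher and 3 lower, beside 10.4% of all detectable genes either way, and the median was 0.051. The lower ones were Copz2, Tmed6 and Tmed3. Tmed6 and Tmed3, of the p24 family that sorts cargo into vesicles, read 1620.3 and 816 in wild-type against 596 and 325 in null zymogenic cells, differences of -1.44 and -1.33. In neck cells both were lower in the null array as well, Tmed6 at 83.5 against 337 and Tmed3 at 222 against 345. Their relatives Tmed7 (164 to 356, 1.11) and Tmed4 (90.0 to 172, 0.94) ran higher and Tmed2 (1411 to 1195), Tmed5 (54.0 to 57.6), Tmed9 (45.6 to 45.4) and Tmed10 (1099 to 1058) differed little. Higher too was Arf1, the GTPase that recruits the COPI coat (276 to 674, 1.29).

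At the granule and the apical membrane, 1 of 41 detectable Rab GTPases was at least 2-fold higher and 2 lower (median 0.13). Rab27a, 1 of the lower ones, had the reverse order in neck cells, 47.3 in wild-type and 83.1 in null cells. Rab23 (118 to 25.1) was the other lower one and Rab39b (34.5 to 83.3) the higher one. For each of these 3 genes 1 zymogenic value lay under the level. Of 52 detectable SNARE and exocytosis genes, 3 were at least 2-fold higher and 3 lower, with a median of -0.021. Besides Stxbp6 the lower ones were Stxbp4 (89.7 to 24.5) and Stxbp5, tomosyn (102 to 45.4, -1.16), and the higher ones were the plasma membrane SNARE genes Stx4a (142 to 294, 1.06) and Stx2 (20.9 to 45.0) and the exocyst subunit gene Exoc1 (27.4 to 65.8). These shares lie near or under the 10.4% of all detectable genes, so the lists as wholes do not stand out by count. Stxbp6, Stxbp4, Stx2 and Exoc1 each had 1 zymogenic value under the level, which fixes their direction.

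**Figure D3:**
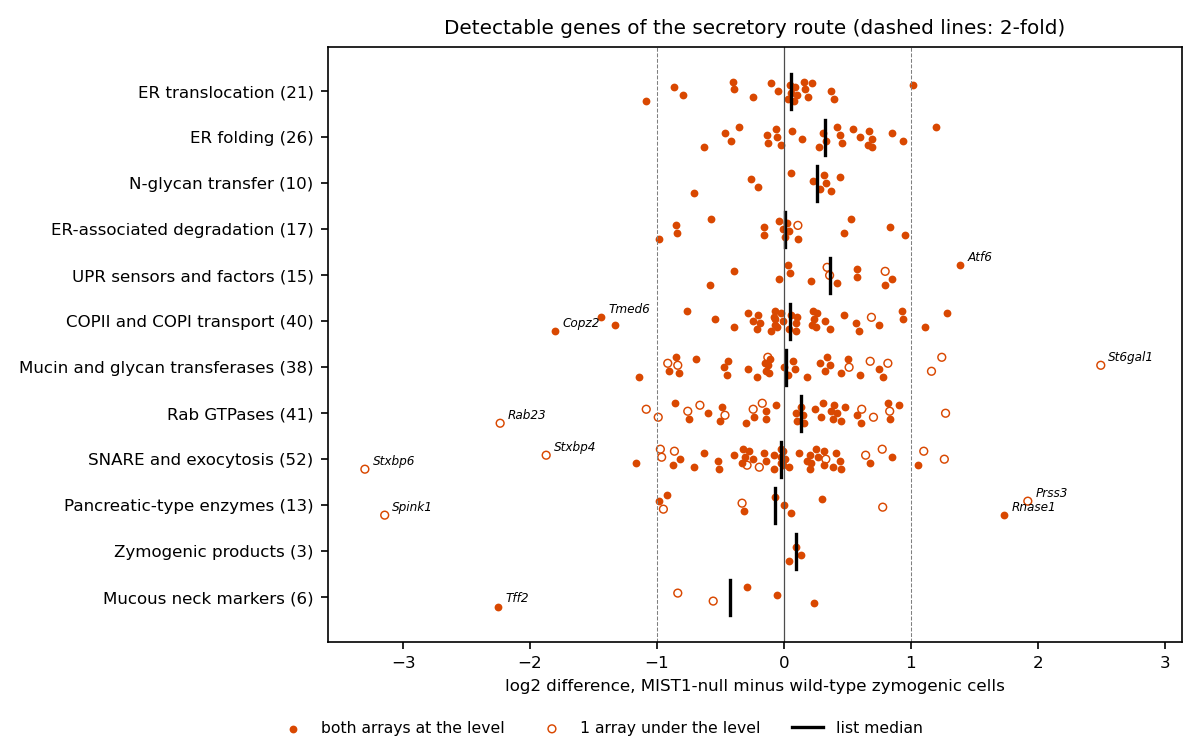
Log2 difference (MIST1-null minus wild-type zymogenic cells, 1 array each) of every detectable gene in 12 lists along the secretory route, with list size in brackets, the median as a black bar and dashed lines at 2-fold; open circles have 1 array under the level. Medians run from -0.42 for mucous neck markers to 0.36 for sensors and factors of the unfolded protein response (UPR). Single genes such as Stxbp6, Spink1, Tff2 and Copz2 lie far from their list medians.

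Mucous features of the neck cell were read next. Of 6 detectable neck markers 1, Tff2, was at least 2-fold lower and none higher, with 5 below 0 and a median of -0.42. With only the 4 members at the level in both arrays the median was -0.17. Agr2, a folding enzyme for mucins, read 273 and 223, far under the 2979 and 3472 of neck cells. A4gnt, which caps gland mucin sugars, read 63.6 and 35.6, and Gkn3, a gastrokine, 59.8 and 40.7. Since cells were picked by the lectin that marks this mucus, these genes stand close to the choice of cells. Among 38 detectable mucin and glycan transferase genes 3 were at least 2-fold higher and 1 lower (median 0.019). The lower one was B4galt1, which adds galactose to glycans (149.9 to 68.1, -1.14), and the sialyltransferase St6gal1 went from 15.0 to 84.8, with its wild-type value under the level.

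Surface mucous (pit) markers were near level, with a median of 0.093 over 9 members. Ctse, cathepsin E, was the exception, from 623 to 1757 (1.50), against 1536 and 2166 in neck cells. Genes tied to mucous metaplasia of the injured stomach had 5 of 10 members detectable, with all 5 above 0 and a median of 0.57. That median was 0.32 over the 4 members at the level in both arrays and 0.084 over all 10. Clu, clusterin, went from 641 to 1088 (0.76), while Sox9 (0.069) and Mal2 (0.038) were level and Wfdc2, Olfm4, Cd44, Gpx2 and Cftr were under the level in both zymogenic arrays. Dmbt1, past 2-fold at 1.46, was under the level in wild-type cells (22.2 to 60.9). Of 34 proliferation genes 17 were under the level in both zymogenic arrays, among them Mki67, Top2a and Plk1. Of the 17 detectable ones 3 were at least 2-fold higher and 1, Blm, lower, with a median of -0.16. The higher ones, Rrm1 (14.7 to 47.3), Ccne2 (27.9 to 86.2) and Birc5 (19.6 to 50.4), were under the level in wild-type cells.

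Genes of oxidative metabolism were higher as a group by small amounts. Subunits, assembly factors and partners of the respiratory chain and the ATP synthase had 81 listed genes with a value. All 81 were detectable, none passed 2-fold, and 74 were above 0, with a median of 0.36 against 0.042 over all detectable genes, of which 52.9% were above 0. By complex the medians were 0.28 for 35 genes of complex I, 0.46 for 14 of complexes II and III, 0.39 for 16 of complex IV and 0.41 for 16 of complex V. Cox6b1, a subunit of cytochrome oxidase, read 3199 in wild-type and 5432 in null zymogenic cells (0.76). Atp5c1, of the ATP synthase, read 1254 and 2031 (0.70). Ndufa12, of complex I, read 490.4 and 811 (0.73). The sum of the 81 intensities was 83757 in wild-type zymogenic cells and 112958 in null ones, against 115916 and 115268 in neck cells. Wild-type zymogenic cells gave the lowest of the 4 values for 65 of the 81 genes, and for 28.5% of all detectable genes.

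Enzymes that feed the chain differed more. In the tricarboxylic acid (TCA) cycle 3 of 17 genes were at least 2-fold higher, none lower, and the median was 0.61. Over all detectable genes the share at least 2-fold higher was 5.15%. Ogdh, of the oxoglutarate dehydrogenase, went from 57.2 to 164 (1.51), Idh3g, of the isocitrate dehydrogenase, from 243 to 582 (1.26) and Pdhb, of pyruvate dehydrogenase, from 212 to 437 (1.04). Cs, citrate synthase, and Pcx, pyruvate carboxylase, ran lower, at -0.61 (388 to 253) and -0.99 (110.3 to 55.7). In fatty acid oxidation 5 of 20 detectable genes were at least 2-fold higher and none lower (median 0.57). Cpt1a, which commits fatty acids to the mitochondrion, went from 50.9 to 153 (1.59), and the beta-oxidation enzyme gene Hadhb from 239 to 524 (1.13). Eci1 (1.12), Eci2 (1.08) and Acadvl (1.09) were the other 3. In neck cells the medians were -0.037 for the cycle and 0.060 for fatty acid oxidation.

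Among regulators of mitochondrial genes, 3 of 16 detectable members were at least 2-fold higher, beside 5.15% of all detectable genes. None were lower, and the median was 0.28. Besides Ppargc1a the 3 higher ones were Esrrg, the nuclear receptor ERR gamma that pairs with it (123 to 363, 1.56), and Ppargc1b, a close relative of Ppargc1a (40.9 to 95.3, with the wild-type value under the level). Esrra, ERR alpha, was level at 0.082, and Tfam, a factor of mitochondrial DNA, was under the level in both zymogenic arrays. Of the 3, Ppargc1a alone was higher in null zymogenic cells than in both neck arrays. Esrrg read 423 and 489 and Ppargc1b 130.0 and 111 in neck cells.

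Markers of parietal cells, which the dissection avoided by their shape, ran the same way as these lists. Of 15 detectable markers 6 were at least 2-fold higher in null zymogenic cells, beside 5.15% of all detectable genes. None were lower, 14 were above 0 and the median was 0.98. Over the 12 markers at the level in both arrays the median was 0.95. The others were counted as detectable through 1 array alone, which fixes their direction. Atp4a and Atp4b, the acid pump, went from 2278 to 3955 (0.80) and from 1202 to 1945 (0.70). Slc26a9, a chloride channel, went from 206 to 487 (1.24), Kcnj15, a potassium channel, from 227 to 478 (1.08) and Kcne2, another channel subunit, from 499.9 to 1038 (1.05). The summed intensity of all 16 markers was 5885 in wild-type and 10539.8 in null zymogenic cells and 11805 and 13173 in wild-type and null neck cells. Wild-type zymogenic cells gave the lowest of the 4 values for 12 of the 15. Slc26a7 was under the level in both zymogenic arrays, but neither array was free of the defining markers. Esrrg is itself among these markers, and without it the median of the other 14 was 0.95. Parietal cells are rich in mitochondria, and the part of parietal RNA in the mitochondrial differences, or in those of Ppargc1a, was not tested.

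**Figure D4:**
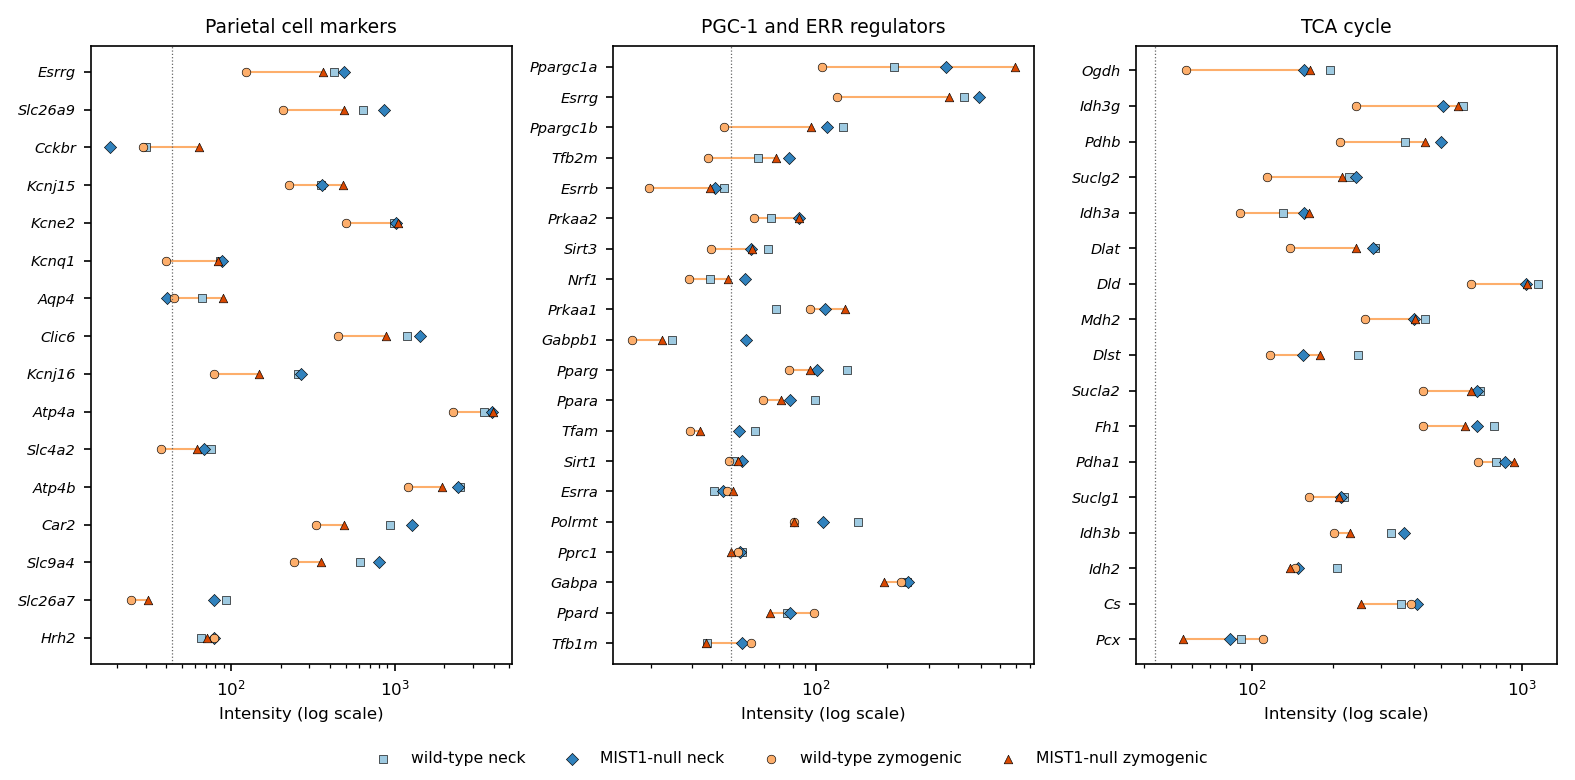
Intensity (log axis) in each of the 4 arrays for 16 parietal cell markers, 20 regulators of mitochondrial genes and 17 TCA cycle genes, ordered by the difference between the zymogenic arrays, which a line joins; the dotted line marks the level of 43.7. The wild-type zymogenic circle lies left of the other 3 points for most genes, and the null zymogenic triangle of Ppargc1a lies right of them, at 696.

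The vacuolar ATPase, the pump that acidifies lysosomes and granules, had 3 of 16 genes at least 2-fold higher and 2 lower. Over all detectable genes 5.15% were that much higher and 5.23% lower. For the pump 13 genes were above 0 and the median was 0.47. Atp6v1a, its catalytic subunit, went from 289 to 827 (1.52), Atp6v0a1 from 81.0 to 179.8 (1.15) and Atp6v1b2 from 39.0 to 112. Atp6v0a2, an alternative to the second of these, ran lower, from 146 to 67.2 (-1.12), as did Atp6v0e2 (70.6 to 25.8). Atp6v1b2 and Atp6v0e2 each had 1 value under the level, which fixes their direction. Over the 14 pump genes at the level in both arrays the median was also 0.47. Lysosomal proteins had 1 of 27 detectable genes at least 2-fold higher and 1 lower (median 0.22), namely Psap, prosaposin (126 to 332, 1.40), and Ctsc. Autophagy genes had 0 of 24 past 2-fold and a median of 0.072.

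Genes of glutathione use and oxidant defence had a median of 0.52 over 26 detectable members. None were at least 2-fold lower and 4 were at least 2-fold higher, beside 5.15% over all detectable genes. Besides Gstm5 the 4 higher ones were Gpx3, a secreted peroxidase (52.6 to 150.1, 1.51), Cat, catalase (52.5 to 109, 1.05), and Gsta3, whose wild-type value lay under the level (24.5 to 53.1). Gpx3 was under the level in both neck arrays, at 22.2 and 29.4. Sod2, the mitochondrial superoxide dismutase, was at 0.94 (82.6 to 159), and Prdx4, the peroxiredoxin of the ER, at -0.64 (353 to 227).

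Ribosomal protein genes ran slightly the other way. Of 54 detectable genes, matched by name pattern and including some paralogs, 41 were below 0 and the median was -0.16. Without names that end as paralogs do, 49 genes had a median of -0.16 and 12 were above 0. Rps27l, such a paralog, was the 1 gene past 2-fold (1484 to 498, -1.58). Rpl14 was at -0.83 (597 to 335) and Rpl10 at 0.41 (2776 to 3683). The summed intensity of the 57 genes was 107507 in wild-type and 99866 in null zymogenic cells, against 113684 and 112979 in neck cells, and null zymogenic cells gave the lowest of the 4 values for 36 of the 54. Mitochondrial ribosomal proteins were spread more widely, with 3 of 71 at least 2-fold higher, 1 lower and a median of 0.13. Mrpl16 (522 to 1339) and Mrpl42 (609 to 1522) were high and Mrpl13 (268 to 95.8) low. Translation initiation genes had a median of 0.12 over 46, with Eif3e (57.4 to 173) and Eif2s3x (142 to 376) at least 2-fold higher and 2 names of the pattern, the inhibitor gene Eif4ebp2 (225 to 94.4) and Eif1ad (157 to 73.0), lower. Of 18 transfer RNA synthetases 1 was past 2-fold, Hars (226 to 109, -1.06). Of 38 proteasome genes 3 were higher, Psmb2 (129.8 to 288), Psma5 (85.5 to 180.3) and Psma1 (119.9 to 251), none lower, and the median was 0.11.

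**Figure D5:**
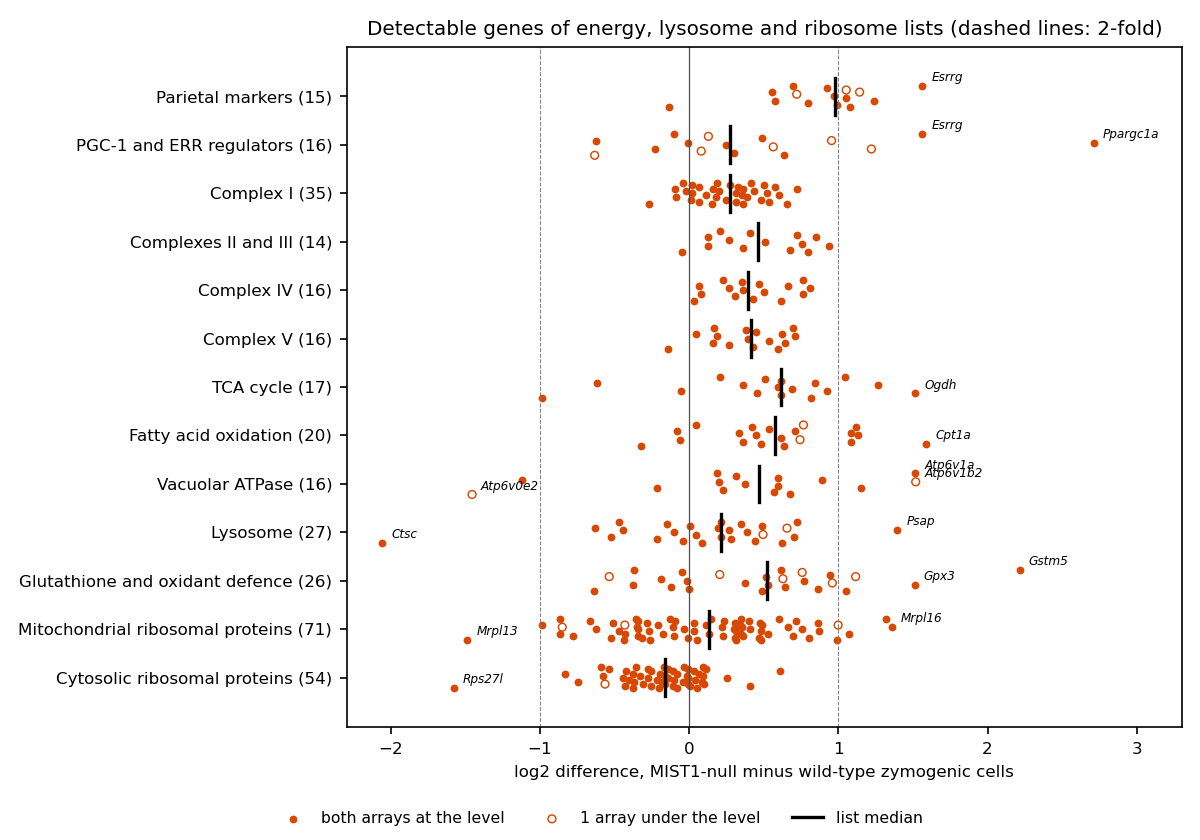
Log2 difference (MIST1-null minus wild-type zymogenic cells, 1 array each) of every detectable gene in 13 lists of energy, lysosome and ribosome genes, with list size in brackets, the median as a black bar and dashed lines at 2-fold; open circles have 1 array under the level. Parietal markers have the highest median, 0.98, the complexes of the respiratory chain lie between 0.28 and 0.46 with no gene past 2-fold, and cytosolic ribosomal proteins lie lowest at -0.16.

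Markers of other cells were read in the same arrays, since a laser cap can hold them. Endocrine markers had a median of 0.22 over 17, with summed intensities of 9926 and 13993 in wild-type and null zymogenic cells. Of the 17, 11 were above 0 and 6 below, down to -0.95, and 1, Hdc, was at least 2-fold higher. The hormone gene Ghrl (ghrelin) read 4428 and 6972, Sst (somatostatin) 2079 and 2686, and Hdc, which makes histamine, 68.0 and 164 (1.27), so endocrine RNA was present in both. Fibroblast and smooth muscle markers had a median of 0.023 over 21, with sums of 3302 and 3652. Pdgfra (83.0 to 167) and Vim (195 to 336) ran higher, and Cnn1 (173 to 129) and Dpt (315 to 223) lower. Leukocyte markers had none of 16 past 2-fold and a median of -0.29, which was -0.030 over the 13 at the level in both arrays, with Cd74 at 118 and 59.2 and sums of 1497 and 1267. Endothelial (median 0.074, 9 genes) and tuft cell markers (median -0.17, 7 genes) also had none past 2-fold, the tuft median was 0.87 over the 3 genes left by a filter at the 75th percentile, and Dclk1 and Trpm5, which define tuft cells, were under the level in both arrays. Squamous epithelium markers had a median of 0.35 over 9, with Krt5 and Trp63, which define that epithelium, under the level. The part of these cells in the differences above was not tested.

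The neck arrays give the same genotype contrast on separate arrays. There 470 of 10966 detectable genes (4.29%) were at least 2-fold different, 207 higher and 263 lower, and the SD of all differences was 0.49 against 0.65 in zymogenic cells. Among the 9857 genes detectable in both cell types, 501 were at least 2-fold higher in null zymogenic and 150 in null neck cells. Both sets held 27 genes, which is 5.39% of the 501 and 18.0% of the 150. At least 2-fold lower were 398 and 188 of the 9857, and 37 were in both sets, 9.30% of the 398 and 19.7% of the 188. Beside the 27 of 501 stand 150 of all 9857 genes that were higher in null neck cells. Beside the 37 of 398 stand 188 of 9857 that were lower there. The 27 of 150 and the 37 of 188 stand beside 501 and 398 of 9857 in zymogenic cells. The size of the overlap was not tested. In opposite directions were 15 genes higher and 11 lower in null zymogenic cells. The parietal median was 0.98 in zymogenic (0.95 with both zymogenic arrays at the level) and 0.064 in neck cells, and the respiratory chain median 0.36 and -0.017. For neck markers the medians were -0.42 (-0.17 with both zymogenic arrays at the level) and 0.25. For leukocyte markers they were -0.29 (-0.030 with both zymogenic arrays at the level) and -0.64, the last over 8 genes that ran from -4.22 to 0.30. The reported MIST1-activated genes had -0.64 over 4 and 0.090 over 3 genes. Only 2 of these 4 were at the level in both zymogenic arrays (median -0.74), and the filter fixed the direction of Gjb1 and Rab26. Each cell type had its own filter, so the members behind 2 such medians can differ. The neck medians were not restricted to genes at the level in both neck arrays. With 1 array per group, none of these differences between cell types was tested.

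The neighbours of Bhlha15 on chromosome 5, in the gene order of RefSeq GRCm38.p6, were read separately, since genes linked to a targeted locus can come from another strain. Of the 93 found within 50 detectable genes on each side, 3 were at least 2-fold higher and 3 lower, with a median of 0.074. Of the 143 within 100 genes on each side, 4 were higher and 7 lower, among them Polr2j, which lies 95 detectable genes from Bhlha15. Beside these stand 5.15% higher and 5.23% lower over all detectable genes. Over chromosome 5 as a whole 26 of 726 genes were higher and 50 lower, and over chromosome 16 it was 35 and 18 of 378.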

How the data were processed

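The 4 arrays (Affymetrix Mouse Gene 1.0 ST), 1 per group, were compared with dChip per the series design text, and the values the authors deposited are linear intensities, 1 per probe set, with background correction and scaling unstated in these sources. Per the labels, pooled RNA was amplified before labelling. Of 35512 probe sets, 21789 had 1 gene symbol, 1621 several and 12102 none in the platform annotation, and only the first were used. The Entrez identifiers of 21698 matched RefSeq (GRCm38.p6) and no symbol needed updating. Of a gene's probe sets, the one with the highest mean over the 4 arrays was kept (999 genes had several).

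Values were floored at 1 and taken to log2. Named genes were the 20 largest differences each way with both zymogenic arrays at the level, and the 15 each way, ranked by log2(value + 32), with the lower array under it and the higher at or above the 75th percentile (6.34 on the log2 scale). Predicted, olfactory, vomeronasal, immunoglobulin segment and small RNA symbols were left out. Examples of the 60 lists were members furthest from 0 or defining the list. The members and lists were chosen with earlier results of these data known. Scripts (Python 3.11.15, pandas 2.3.3, numpy 2.4.6, matplotlib 3.10.9) were tested on simulated data. The alternatives tried were a pseudocount, other scalings, other filters and averaged probe sets. With 1 pooled array per group, no SD between replicates, interval or test could be given.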

Additional observations from a re-analysis of the deposited data

Results flagged for a closer look

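Lgals7, a galectin of stratified epithelia, differed by 2.65 in MIST1-null against wild-type zymogenic cells and by -4.73 in neck cells, where the null array read 4.58. The genotypes thus stood in opposite order in the 2 cell types, on 1 array per group, and the difference between cell types was not tested.

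The median of squamous epithelium markers was 0.35 over 9 detectable genes in zymogenic cells and -0.38 over 6 in neck cells. The zymogenic median was 0.14 over the 6 genes at the level in both arrays and 0.62 with a filter at the 75th percentile. Lgals7 is 1 of these genes, and Krt10 (119 to 45.4 in zymogenic cells) ran the other way. This difference between cell types was not tested either.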

How the results depend on the processing

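The counts at 2-fold depended on how dim genes were treated. Against 609 higher and 619 lower genes, a pseudocount of 32 gave 166 and 179, a filter at the 75th percentile 369 and 347, and a filter on the lower of both values 248 and 210. With no filter 1167 genes were lower, while the 843 higher ones stayed within 1.5 times the first count. The counts of 702 and 588 with all 4 arrays quantile normalized, 625 and 604 with the zymogenic arrays centred on their medians and 598 and 598 with probe sets averaged also stayed within 1.5 times. Of the 70 genes named by rank, 46 would be named with the filter at the 75th percentile and 40 with the filter on the lower value, which admits none bright in only 1 array. Under the other alternatives 62 to 70 were named. Of 59 list medians, none of those at least 0.25 from 0 changed sign under the 7 alternatives, while medians nearer 0 did, such as that of tuft markers (0.87 with the filter at the 75th percentile). From 44 (filter at the 75th percentile) to 59 (centred) of them stayed within 1.5 times their value or within 0.25 of 0. The averaging of probe sets took Atxn1 and Pard3b under 2-fold, as given above. No paired analysis was possible because each group was 1 array, and leaving out a replicate was not possible for the same reason.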

Other observations

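Signalling lists outside the secretory and metabolic themes mostly lay near the background of all detectable genes (median 0.042). Notch genes had none of 24 past 2-fold, with the effector Rbpj at 0.74 (93.9 to 157) and the target Hey1 at -0.81 (78.9 to 45.0). In the Wnt and stem cell list, 1 of 27 was at least 2-fold higher, the receptor Fzd4 (37.0 to 92.1), and 1 lower, the ligand Wnt7b (65.4 to 30.7). Each had 1 value under the level, which fixes its direction. Of the 27 genes 16 were at the level in both arrays. Lgr5, a Wnt-linked receptor known in zymogenic cells, read 242 in wild-type and 168 in null zymogenic cells, above the 32.8 and 63.2 of neck cells. In the BMP list 2 of 27 were higher and 1 lower. Msx2, a homeobox gene, went from 149 to 376 (1.33) and was under the level in neck cells (11.7 and 34.8). Id3 went from 20.6 to 63.8 and the ligand Bmp2 from 64.1 to 26.1. Both Id3 and Bmp2 had 1 value under the level, which fixes their direction. Among 21 epithelial fate factors Runx1 and Esrrg were past 2-fold, while Foxq1, a factor of mucous cells, read 94.8 and 173 against 840.0 and 1076 in neck cells.

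Junction genes had a median of 0.36 over 22. Cdh1, E-cadherin, went from 185 to 379.9 (1.03) and F11r, a tight junction adhesion molecule, from 125 to 332 (1.42), and Cldn8 ran lower (100.5 to 48.1). Of 17 keratin and polarity genes 1 was past 2-fold, Krt19, with the wild-type value under the level (17.1 to 63.2). Stress lists had no common direction. Immediate early genes had a median of 0.28 over 17, with Atf3 (19.2 to 48.7) and Dusp1 (37.2 to 88.0) higher and under the level in wild-type cells. Targets of p53 had a median of -0.27 over 9, with Plk2 (99.3 to 39.8) and Eda2r (62.0 to 27.1) lower. Both were under the level in null cells, which fixes their direction. Over the 6 targets at the level in both arrays the median was -0.16. Clock genes had 10 of 12 below 0 and none past 2-fold, with a median of -0.21. Over the 8 at the level in both arrays the median was -0.10, and the filter fixed the direction of the others. In the interferon list Ifit1 (15.0 to 69.3) and Ifi27 (93.8 to 196) ran higher and Xaf1 (114 to 42.0) and Ifih1 (105 to 51.7) lower. Ifit1 in wild-type and Xaf1 in null cells were under the level, which fixes their direction. In the glycolysis list Pdk1, a kinase that holds back pyruvate entry to mitochondria, went from 38.1 to 121, with the wild-type value under the level.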
